A study of Mus musculus with 6 samples.

Results

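MHC class II presentation genes were followed in small intestinal epithelium of adult mice that lack nuclear receptor corepressors there. They are 8 of the 55450 gene identifiers in the deposited count table, chosen by symbol: the antigen-binding chains H2-Ab1, H2-Aa and H2-Eb1, the invariant chain gene Cd74, the peptide-loading genes H2-DMa, H2-DMb1 and H2-DMb2, and Ciita. The measurement was polyA RNA-seq of scraped epithelium, with 3 double-knockout libraries (animals 423, 476 and 477) and 3 control libraries (animals 482, 483 and 486). Knockout mice were Vil1-Cre-ERT2+ with loxP-flanked alleles of both targeted corepressor genes, one of which is Ncor1, and control mice carried the same floxed alleles without the Cre transgene. Mice of the cross were injected with tamoxifen at 15 mg per 100 g body weight for 5 days at 8 to 9 weeks of age and were later housed singly at 22 °C. The villin promoter directs the Cre to intestinal epithelial cells and not to leukocytes, which scrapings can also hold. Only knockout mice carried the transgene, so its own effects and those of the deletion cannot be told apart. Whether a library is from duodenum, jejunum or ileum is not stated in the labels.

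MHC class II molecules display peptides from endosomes to CD4+ T cells. An alpha and a beta chain pair in the endoplasmic reticulum, the invariant chain (CD74) blocks their groove and escorts them to endosomes, and the DM heterodimer then swaps the remaining invariant chain fragment for peptide. CIITA is a coactivator that binds no DNA itself: it docks on the RFX, CREB and NF-Y factors that sit on the X and Y boxes of class II promoters, and interferon gamma induces it. Dendritic cells, macrophages and B cells express these genes constitutively. Small intestinal epithelial cells also express them, at levels that vary with the microbiota and with interferon gamma.

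The letters that CIITA's partners read can be seen in the RefSeq promoter windows (GRCm38.p6, 250 bases before to 50 after a start). Windows were found for 5 of the 8 genes, and the stretches below are shown because they carry the cores of both boxes. Whether the boxes bear on the levels measured here was not tested. H2-Ob, a chain of the DM inhibitor DO and no member of the set, is shown because its window holds the same arrangement, while those of its partner H2-Oa and of H2-Eb2 do not. Each is given 5′ to 3′ on the gene's own strand of chromosome 17, with the core of the X box (CTNNNAAC) and of the Y box (ATTGG) in capitals.
H2-Aa (chr17:34287861-34287913, minus strand): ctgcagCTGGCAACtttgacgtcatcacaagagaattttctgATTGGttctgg
H2-Eb1 (chr17:34305767-34305818, plus strand): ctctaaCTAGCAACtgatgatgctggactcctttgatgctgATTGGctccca
H2-DMb1 (chr17:34153088-34153140, plus strand): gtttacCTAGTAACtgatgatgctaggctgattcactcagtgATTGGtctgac
H2-DMb2 (chr17:34145117-34145169, plus strand): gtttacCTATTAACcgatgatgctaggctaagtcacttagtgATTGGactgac
H2-Ob (chr17:34238809-34238858, plus strand): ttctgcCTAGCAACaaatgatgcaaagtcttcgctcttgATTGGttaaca

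In the H2-Aa, H2-DMb1 and H2-DMb2 stretches 28 bases separate the capitals, in H2-Eb1 27 and in H2-Ob 25. The X core begins 84 to 126 bases before the RefSeq start in the 4 genes of the set. On either strand, CTNNNAAC occurs in 41.1% and ATTGG in 37.4% of all 32851 windows, and the pair in this order with 24 to 32 bases between them in 0.411% (135 windows). The letters and the spacing were written down after looking at these windows, so the share describes how uncommon the arrangement is and tests nothing. Neither of the 2 windows listed for H2-DMa holds the pair.

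The libraries held 23476031 to 46835165 counts, so 3 counts, the limit used for a gene not seen, correspond to 0.0586 to 0.173 CPM (a gene's share of a library's counts, scaled between libraries by edgeR's TMM method). The targeted gene Ncor1, the corepressor gene that can be reported here, stood at 31.3, 36.4 and 22.5 CPM in knockouts 423, 476 and 477, against 140, 137 and 99.3 CPM in controls 482, 483 and 486. Markers of epithelium were abundant throughout: the 10 listed genes summed to 17200 to 21300 CPM in knockouts and 15900 to 20500 CPM in controls. Of them 1 fell, the villin gene Vil1, and none rose by edgeR, with 2 higher and 2 lower at an unadjusted p under 0.05, and 2 that rose and 2 that fell by DESeq2. With total counts as the only scaling 5 fell. Libraries of a genotype were treated as separate mice, on the strength of their animal numbers.

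MHC class II genes fell in the knockout as a group. Of the 8 genes tested, 7 fell, none rose and H2-DMb2 did not pass the test (edgeR quasi-likelihood test, Benjamini-Hochberg adjustment over 15028 genes, threshold 0.05). Over all genes tested 35.6% passed: 18.3% fell and 17.3% rose. The log2 fold changes of the 7 ran from -5.17 to -3.58, the median over the 8 was -3.81, and the median over all genes was -0.06. In those 7 genes every knockout library lay below every control library, which was so for 26.4% of all genes tested. Together the 8 genes took 0.0125%, 0.00283% and 0.00106% of the counts in knockouts 423, 476 and 477, against 0.0668%, 0.255% and 0.0452% in controls 482, 483 and 486. In bulk libraries like these, fewer class II-expressing cells and less class II RNA per cell cannot be told apart.

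**Figure D1:**
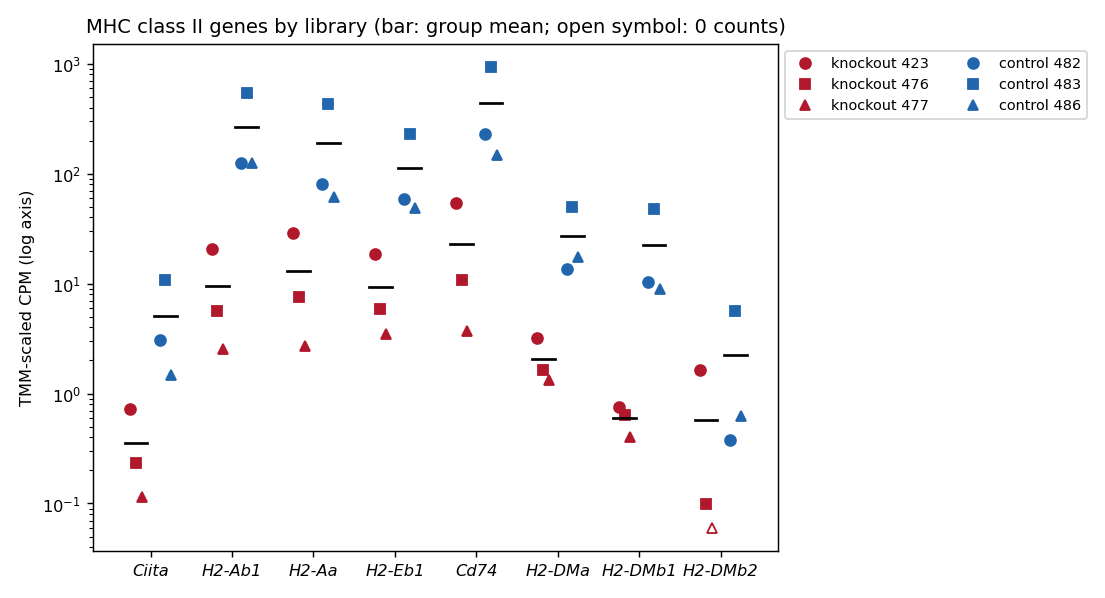
TMM-scaled CPM (log axis) of the 8 class II genes in each library, knockouts left of controls, with a bar at each group mean. Control 483 is the highest library for all 8 genes and knockout 423 the highest knockout. The open triangle, set at the foot of the axis, is the 0 counts of H2-DMb2 in knockout 477.

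Ciita, the coactivator at the top of the pathway (ENSMUSG00000022504, chromosome 16, 10480059 to 10528418, mm10), was scarce in every library. It had 20, 7 and 2 counts in knockouts 423, 476 and 477, which is 0.724, 0.233 and 0.115 CPM, against 145, 320 and 75 counts, or 3.06, 10.8 and 1.47 CPM, in controls 482, 483 and 486. The genotypes did not overlap: the lowest control was 2.02 times the highest knockout. The log2 fold change was -3.76 ± 0.84 (SE; adjusted p = 0.0089). Of its 9535 exon bases, 329 overlap exons of Dexi on the other strand, and the strand setting of the counting is not given in the sources used here.

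H2-Ab1 encodes the beta chain of I-A, the main class II molecule of the mouse (ENSMUSG00000073421, chromosome 17, 34257689 to 34269419). It stood at 20.6, 5.68 and 2.53 CPM in knockouts 423, 476 and 477. In controls 482, 483 and 486 it stood at 125, 546 and 126 CPM, so the least expressing control was 6.06 times the highest knockout. The log2 fold change was -4.78 (SE 0.98, adjusted p = 0.011).

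H2-Aa encodes the partner alpha chain (ENSMUSG00000036594, chromosome 17, 34282744 to 34287823). It had 28.8, 7.51 and 2.7 CPM in knockouts 423, 476 and 477, against 80.6, 432 and 62.0 CPM in controls 482, 483 and 486 (log2 fold change -3.87, SE 1.09, adjusted p = 0.030). H2-Eb1, the beta chain of I-E (ENSMUSG00000060586, chromosome 17, 34305867 to 34316674), had 18.5, 5.85 and 3.51 CPM in knockouts 423, 476 and 477, against 59.3, 227 and 48.7 CPM in controls 482, 483 and 486. Its log2 fold change was -3.58 (SE 0.84, adjusted p = 0.017). Both genes kept the genotypes apart, although knockout 423 lay within 2.15-fold of the lowest control for H2-Aa and within 2.63-fold for H2-Eb1. The alpha chain of I-E is annotated as the pseudogene H2-Ea-ps, which had 2 counts in control 486 and none in the other 5 libraries.

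Cd74, the invariant chain gene, was the most abundant of the 8 (ENSMUSG00000024610, chromosome 18, 60803848 to 60812652). It stood at 53.9, 10.8 and 3.74 CPM in knockouts 423, 476 and 477, against 229, 934 and 149 CPM in controls 482, 483 and 486. The knockouts differed among themselves by up to 14.4-fold and the controls by up to 6.29-fold, yet the lowest control was 2.76 times the highest knockout. The log2 fold change was -4.25 (SE 1.15, adjusted p = 0.027).

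The peptide-loading genes H2-DMa and H2-DMb1 gave the smallest standard errors. H2-DMa, the alpha chain of DM (ENSMUSG00000037649, chromosome 17, 34119541 to 34139101), had 3.18, 1.63 and 1.32 CPM in knockouts 423, 476 and 477, against 13.6, 49.4 and 17.5 CPM in controls 482, 483 and 486. Its log2 fold change was -3.69 (SE 0.54, adjusted p = 0.0013), and 360 of its 3448 exon bases overlap Brd2 on the other strand. H2-DMb1, a beta chain of DM (ENSMUSG00000079547, chromosome 17, 34153072 to 34160230), had 0.760, 0.632 and 0.403 CPM in knockouts 423, 476 and 477, against 10.5, 47.7 and 8.85 CPM in controls 482, 483 and 486. Its log2 fold change, -5.17, was the lowest of the 8 (SE 0.72, adjusted p = 0.0011), and its lowest control was 11.6 times its highest knockout. The knockout levels of H2-DMb1 rest on 21, 19 and 7 counts.

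H2-DMb2, the second DM beta chain gene and the tandem neighbour of H2-DMb1 (ENSMUSG00000037548, chromosome 17, 34143307 to 34151555), departed from the others. It had 45, 3 and 0 counts in knockouts 423, 476 and 477 (1.63, 0.0997 and 0 CPM), against 18, 168 and 32 counts in controls 482, 483 and 486 (0.379, 5.67 and 0.625 CPM). Knockout 423 stood above controls 482 and 486, and the log2 fold change of -1.86 (SE 1.37) did not pass the test (adjusted p = 0.32). Without control 483 it was 0.24. In knockout 423 there were 0.467 counts of H2-DMb1 for each of H2-DMb2 and in knockout 476 there were 6.33, while knockout 477 had 7 counts of H2-DMb1 and none of H2-DMb2, against 27.6, 8.40 and 14.2 in controls 482, 483 and 486. Of the 50-base words in the annotated H2-DMb1 transcripts 22.7% also occur in those of H2-DMb2, so how reads of one were shared with the other is uncertain.

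**Figure D2:**
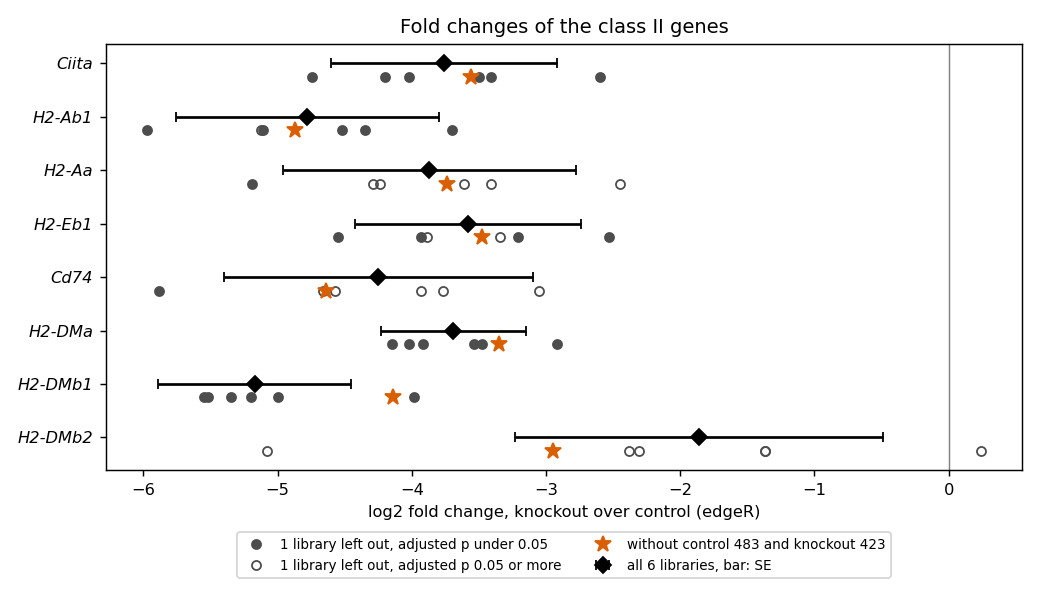
Log2 fold change of each class II gene, knockout over control, with all 6 libraries (diamond, bar: SE), with 1 library left out (circles, filled where the adjusted p stayed under 0.05) and without control 483 and knockout 423 (stars). H2-DMa, H2-DMb1 and Ciita keep filled circles throughout. H2-DMb2 has none and spans -5.08 to 0.24.

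How firm the calls are differed between the genes. H2-DMa, H2-DMb1 and Ciita passed whichever 1 of the 6 libraries was left out. Cd74 and H2-Aa passed only without knockout 423 (Cd74, adjusted p = 0.012; H2-Aa, 0.022) and gave adjusted p of 0.055 to 0.10 and 0.057 to 0.10 without any other library. H2-Ab1 lost its call without control 482 (0.055), and H2-Eb1 without control 482 (0.066) or knockout 476 (0.055). The count that fell was therefore 3 without control 482, 4 without knockout 476, 7 without knockout 423 and 5 when any of the other 3 was left out. Of all genes tested, 11.8% fell without control 482, 15.2% without knockout 476 and 13.2% without knockout 423. The shares were 12.7% without control 483, 19.5% without control 486 and 11% without knockout 477. Direction was negative in every one of these fits, apart from H2-DMb2 without control 483.

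Levels of the 8 genes went together among mice of a genotype. Control 483 had the highest level of all 8 genes among the controls, knockout 423 the highest and knockout 477 the lowest among the knockouts. Highest over lowest control ranged from 3.63-fold for H2-DMa to 15.0-fold for H2-DMb2. Pearson correlations of log2 CPM over the 28 gene pairs ran from 0.71 to 1.00 with a median of 0.97 over the 6 libraries. After each genotype's mean was taken out they ran from 0.78 to 0.99 with a median of 0.95. These correlations rest on 6 points that share library and scaling, and on much the same 2 high libraries after the means are removed.

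Per exon length, which allows genes to be ranked against each other, Cd74 led in both genotypes. Mean levels in knockouts were 13.6 RPKM (TMM-scaled CPM over the exon length in kilobases) for Cd74, 4.78 for H2-Eb1, 3.73 for H2-Ab1, 3.42 for H2-Aa, 0.593 for H2-DMa, 0.356 for H2-DMb1, 0.330 for H2-DMb2 and 0.0375 for Ciita. In controls they were 260 RPKM for Cd74, 103 for H2-Ab1, 57.5 for H2-Eb1, 50.4 for H2-Aa, 13.3 for H2-DMb1, 7.79 for H2-DMa, 1.27 for H2-DMb2 and 0.536 for Ciita. Neighbours in each order held their places in all 3 libraries, with these exceptions: H2-DMb2 and Ciita kept theirs in 2 of 3 libraries of either genotype, and H2-DMb1 and H2-DMb2 in 2 of 3 knockouts. The 2 orders differ at H2-Eb1 and H2-Ab1, and at H2-DMa and H2-DMb1.

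**Figure D3:**
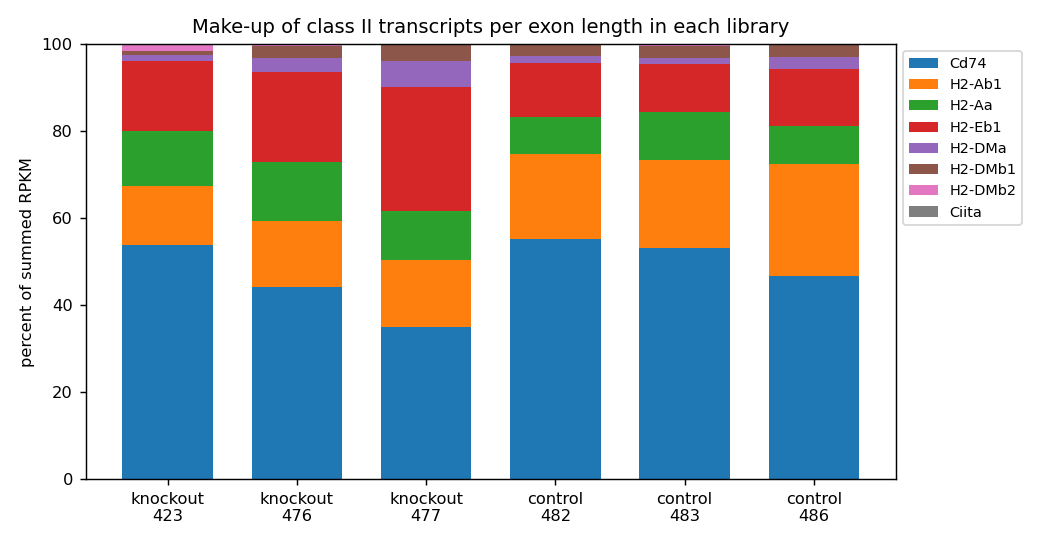
Share of each gene in the summed RPKM of the 8 class II genes (percent), knockouts left of controls. Cd74 makes up 35.0% to 53.9% in knockouts and 46.7% to 55.1% in controls, and H2-Eb1 16.0% to 28.4% in knockouts and 11.2% to 13.2% in controls.

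Ratios between the genes separated the genotypes in some cases and not in others. There were 0.901, 1.03 and 1.39 counts of H2-Eb1 for each count of H2-Ab1 in knockouts 423, 476 and 477, against 0.476, 0.417 and 0.387 in controls 482, 483 and 486. For H2-Aa the figures were 1.40, 1.32 and 1.07 counts per count of H2-Ab1 in the knockouts and 0.647, 0.792 and 0.492 in the controls. H2-DMa gave 4.19, 2.58 and 3.29 counts per count of H2-DMb1 in the knockouts and 1.30, 1.04 and 1.98 in the controls. These knockout values rest on 21, 19 and 7 counts of H2-DMb1. Such ratios do not depend on the scaling between libraries. The genotypes did not overlap in these 3, with log2 differences of 1.36, 0.99 and 1.24. Cd74, the most abundant gene, did overlap, at 2.62, 1.91 and 1.48 counts per count of H2-Ab1 in the knockouts and 1.84, 1.71 and 1.18 in the controls (log2 difference 0.33). A two-sided exact permutation test gave p = 0.10 for each of the 3 and 0.40 for Cd74, or 0.12 and 0.40 when adjusted over 18 ratios. With 3 libraries against 3 no p can be lower than 0.10, so none of these differences passes a threshold of 0.05.

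Leukocyte markers moved with part of this pattern. The 11 B cell markers summed to 13.1, 2.66 and 1.55 CPM in knockouts 423, 476 and 477, against 3.65, 79.4 and 5.37 CPM in controls 482, 483 and 486, so the libraries that led each genotype in class II also led it in B cell genes. The same 2 libraries led in the dendritic cell list and the general leukocyte list. Of the 4 B cell markers tested none passed by edgeR or DESeq2, and none had an unadjusted p under 0.05 by edgeR. Their median log2 fold change was -1.65, and 1 of 10 B cell markers fell without control 482. The defining markers Pax5 and Cr2 were at 0 in knockouts 476 and 477, but in knockout 423 (0.398 and 0.579 CPM) they stood above controls 482 (0.105 and 0.148 CPM) and 486 (0.0976 and 0.0781 CPM). Cd79b, a B cell receptor component, had 0.698 and 0.575 CPM in knockouts 476 and 477, no lower than the 0.569 CPM of control 482. H2-Oa and H2-Ob, which encode DO and are best known from B cells, and H2-Eb2 followed the same course and were too scarce to be tested: H2-Ob, the DO beta chain, had 1.56, 0.0665 and 0 CPM in knockouts 423, 476 and 477, against 0.232, 7.70 and 0.234 CPM in controls 482, 483 and 486.

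The 10 dendritic cell markers summed to 1.04 to 2.14 CPM in knockouts and 4.09 to 9.59 CPM in controls, without overlap. At a median log2 fold change of -1.94 over the 3 tested, Itgax (CD11c, also carried by intraepithelial lymphocytes, log2 fold change -1.94) and Batf3 (-2.76) fell. Batf3 had 2, 2 and 0 counts in knockouts 423, 476 and 477, under the limit of 3 counts for a gene not seen. In controls 482, 483 and 486 it had 19, 13 and 15. No dendritic cell marker passed without control 483, and 1 passed without control 482 or knockout 477. Macrophage markers summed to 71.3 to 91.0 CPM in knockouts and 72.7 to 135 CPM in controls, with a median log2 fold change of -0.46 over the 11 tested. By edgeR 2 rose, Csf1r (0.98) and Cd14 (1.12), and none fell, with 1 lower at an unadjusted p under 0.05 and none that fell by DESeq2. None rose without control 483 or with total counts as the only scaling, 1 rose without control 482, knockout 476 or knockout 477, and 1 fell with total counts or without knockout 423. T cell and intraepithelial lymphocyte markers summed to 499 to 585 CPM in knockouts and 95.9 to 610 CPM in controls. Gzma alone held 378.2, 417.7 and 468.4 CPM of these sums in knockouts 423, 476 and 477, and 49.5, 377.5 and 195.5 CPM in controls 482, 483 and 486. The median log2 fold change over the 11 tested was -0.29, with none called by edgeR, 1 at an unadjusted p under 0.05 and 1 by DESeq2, whereas 3 rose without control 483. Of 8 general leukocyte genes, Ptprc (CD45, -1.78) and Rac2 (-1.74) fell, and the other 6 were not called and overlapped between genotypes. Control 482 was the lowest of all libraries for Coro1a, Laptm5, Cd52, Cd53 and Arhgdib, but not for Lcp1. The sums were 43.4 to 78.2 CPM in knockouts and 78.7 to 204 CPM in controls, almost touching. Ptprc and Rac2 gave 24.1 and 26.7 CPM of the sum in control 482, against 8.14 and 8.94 CPM in knockout 423. What part such cells have in the class II values was not tested. The distal marker list, which bears on the section sampled, had 3 of 7 genes that fell and none that rose by edgeR (5 fell without control 483, 1 rose without control 486). By DESeq2 5 of the 7 fell and 1 rose. The proximal list had 2 of 7 that rose and 1 that fell (2 without knockout 423). Over all genes tested 18.3% fell and 17.3% rose by edgeR. Whether the genotypes differ in the section sampled was not tested.

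**Figure D4:**
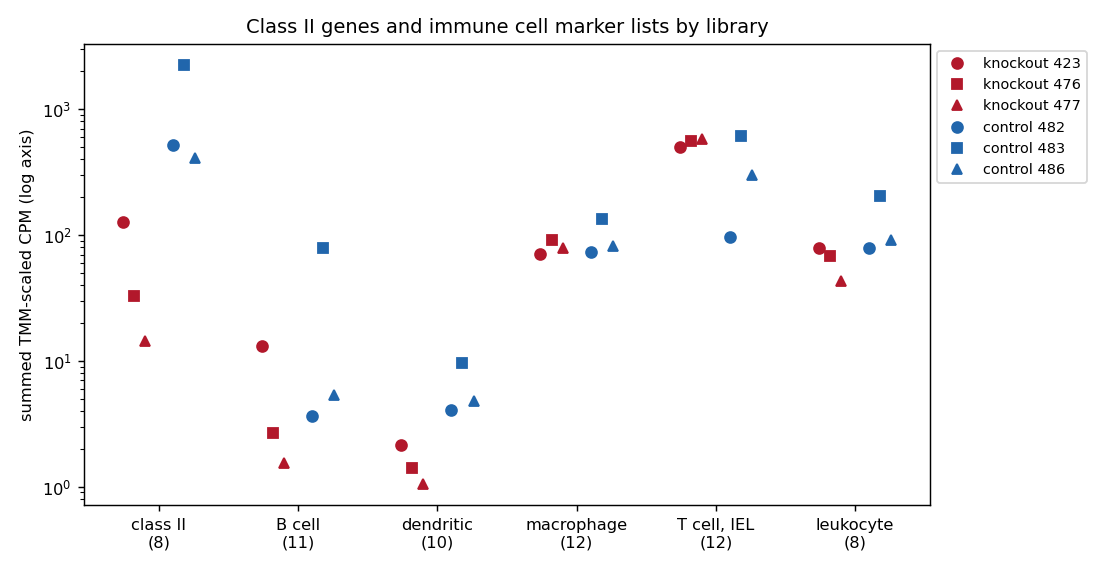
Summed TMM-scaled CPM (log axis) of the 8 class II genes and of 5 immune cell marker lists in each library, knockouts left of controls (number of genes in brackets). Control 483 and knockout 423 lead their genotype in class II and in the B cell, dendritic cell and general leukocyte lists. B cell, T cell and macrophage sums overlap between genotypes.

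Set against marker counts within a library, class II counts gave these values. The summed class II counts were 9.78, 12.2 and 9.22 per B cell marker count in knockouts 423, 476 and 477, against 143, 28.4 and 77.0 in controls 482, 483 and 486 (log2 difference -2.72). Per dendritic cell marker count they were 60.0, 23.3 and 13.8 in the knockouts and 127, 235 and 86.8 in the controls (log2 difference -2.36). Some divisors were small. B cell markers had 362, 80 and 27 counts in the knockouts and 173, 2351 and 275 in the controls. Dendritic cell markers had 59, 42 and 18 in the knockouts and 194, 284 and 244 in the controls. In knockout 477, 7 of 11 B cell markers and 7 of 10 dendritic cell markers were at 0. Neither sum overlapped between genotypes (two-sided exact permutation p = 0.10 each, adjusted p = 0.12 over the same 18 ratios). Per count of Ptprc, 1 of the 2 general leukocyte genes that fell, every knockout lay below every control for 5 of the 8 genes. How often this held over all genes on that scale was not counted, so the 5 are a description. H2-Ab1 had 2.52, 0.594 and 0.373 counts per count of Ptprc in the knockouts and 5.18, 13.3 and 6.40 in the controls. The other 3 genes overlapped, because knockout 423 stood above 1 or 2 of the controls. For H2-Aa it had 3.53 counts per count of Ptprc, against 3.35 and 3.15 in controls 482 and 486. For Ciita it had 0.0889, against 0.0745 in control 486, and for H2-DMb2 0.200, against 0.0158 and 0.0318 in controls 482 and 486.

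With both control 483 and knockout 423 left out, 2 libraries a genotype remain, with B cell sums of 1.55 to 2.66 CPM in knockouts and 3.65 to 5.37 CPM in controls. The log2 fold changes of the 7 genes were then -4.87 to -3.35. These 2 libraries are also the highest of their genotype in all 8 class II genes, so leaving them out narrows the spread by construction (SE of H2-Ab1 0.43, against 0.98 with all libraries), and no p is read from that fit. It was chosen after the values were seen.

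None of 7 genes for the DNA-binding factors on which CIITA docks passed the test. Rfx5, the RFX subunit mutated in one form of bare lymphocyte syndrome in humans, stood at 3.51, 4.16 and 2.7 CPM in knockouts 423, 476 and 477, against 3.42, 3.28 and 2.34 CPM in controls 482, 483 and 486 (log2 fold change 0.21, SE 0.32). Its partners Rfxank (log2 fold change -0.37, SE 0.25) and Rfxap (-0.49, SE 0.25), Creb1 and the NF-Y subunit genes Nfya and Nfyb had adjusted p of 0.15 to 0.71, and the third NF-Y gene, Nfyc, was the one with an unadjusted p under 0.05 (log2 fold change -0.47, adjusted p = 0.074). Of the 10 promoter factors and coactivators 2 fell, close to the 18.3% of all genes tested, and none rose, at a median of -0.42. The 2 were the acetyltransferase genes Ep300 (-1.0, adjusted p = 0.020) and Crebbp (-0.83, adjusted p = 0.023). Leaving out control 482, control 483 or knockout 477 left no call among the 10, and leaving out knockout 423 left 1. With total counts as the only scaling 7 fell, where 30.3% of all genes fell and the median of all genes was -0.49.

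Upstream of Ciita the interferon gamma genes were mixed. Of 13 tested, 5 fell and 1 rose, at a median log2 fold change of -0.37, where 18.3% of all genes tested fell and 17.3% rose. Socs1, a feedback inhibitor of interferon gamma signalling, had 0.434, 0.499 and 0.230 CPM in the knockouts and 2.72, 3.99 and 4.10 CPM in the controls (log2 fold change -3.16, adjusted p = 0.00075). Nlrc5, the CIITA relative that drives class I genes, fell by 2.32 on the log2 scale (adjusted p = 0.021), with control 483 highest again at 8.04 CPM. Jak1 (-0.64) and Irf2 (-0.76) fell, and the TGF-beta receptor gene Tgfbr2, whose ligand restrains Ciita, rose (1.92). Irf1, which binds the interferon-responsive Ciita promoter, overlapped between genotypes at 112, 202 and 181 CPM in knockouts 423, 476 and 477, against 118, 192 and 93.7 CPM in controls 482, 483 and 486. Ifngr1 (0.30) and Ifngr2 (-0.31) did not pass, and Ifng itself had at most 0.101 CPM in any library. The 5 that fell became 1 when control 483, knockout 423 or knockout 477 was left out and 3 when control 482 was. With total counts as the only scaling 9 fell, and so did 30.3% of all genes.

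Genes that prepare antigen in endosomes gave calls in both directions. Of 11 tested, 4 rose and 1 fell, at a median log2 fold change of 0.70, where 17.3% of all genes tested rose and 18.3% fell. Ctsl, a cathepsin that cleaves the invariant chain in thymic epithelium, stood at 87.7, 108 and 150 CPM in knockouts 423, 476 and 477, against 29.4, 30.4 and 30.5 CPM in controls 482, 483 and 486 (log2 fold change 1.94, SE 0.23, adjusted p = 0.00046). The proteases Ctsd (0.70), Ctsh (0.97) and Ctsz (0.79) rose as well. Ctss, the invariant chain protease of dendritic and B cells, overlapped between the genotypes at 118 to 156 CPM in knockouts and 145 to 250 CPM in controls (log2 fold change -0.62, adjusted p = 0.079). Ifi30, the thiol reductase GILT that unfolds antigen, fell (-0.70, adjusted p = 0.020). The 4 that rose became 1 with total counts as the only scaling, 1 when control 482 or knockout 477 was left out and 2 when control 483, knockout 423 or knockout 476 was. Ifi30 kept no call without control 483 or any 1 of the knockouts, where none of the 11 fell.

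Among 8 tested genes of class II turnover and costimulation 1 rose and none fell by edgeR (1 lower at an unadjusted p under 0.05, 1 fell by DESeq2), at a median log2 fold change of -0.66. Lgals9, a galectin, stood at 1005, 989 and 849 CPM in knockouts 423, 476 and 477, against 179, 196 and 237 CPM in controls 482, 483 and 486 (log2 fold change 2.22, adjusted p = 0.00023). March8, which ubiquitinates class II chains in thymic epithelium, had a log2 fold change of -0.39 and March1, its counterpart in dendritic and B cells, one of -1.43, and neither passed. Cd274 (PD-L1) stood at 0.230 to 0.831 CPM in knockouts and 0.898 to 5.0 CPM in controls without passing (adjusted p = 0.059). Cd80, Cd40 and Pdcd1lg2 were too scarce to be tested.

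**Figure D5:**
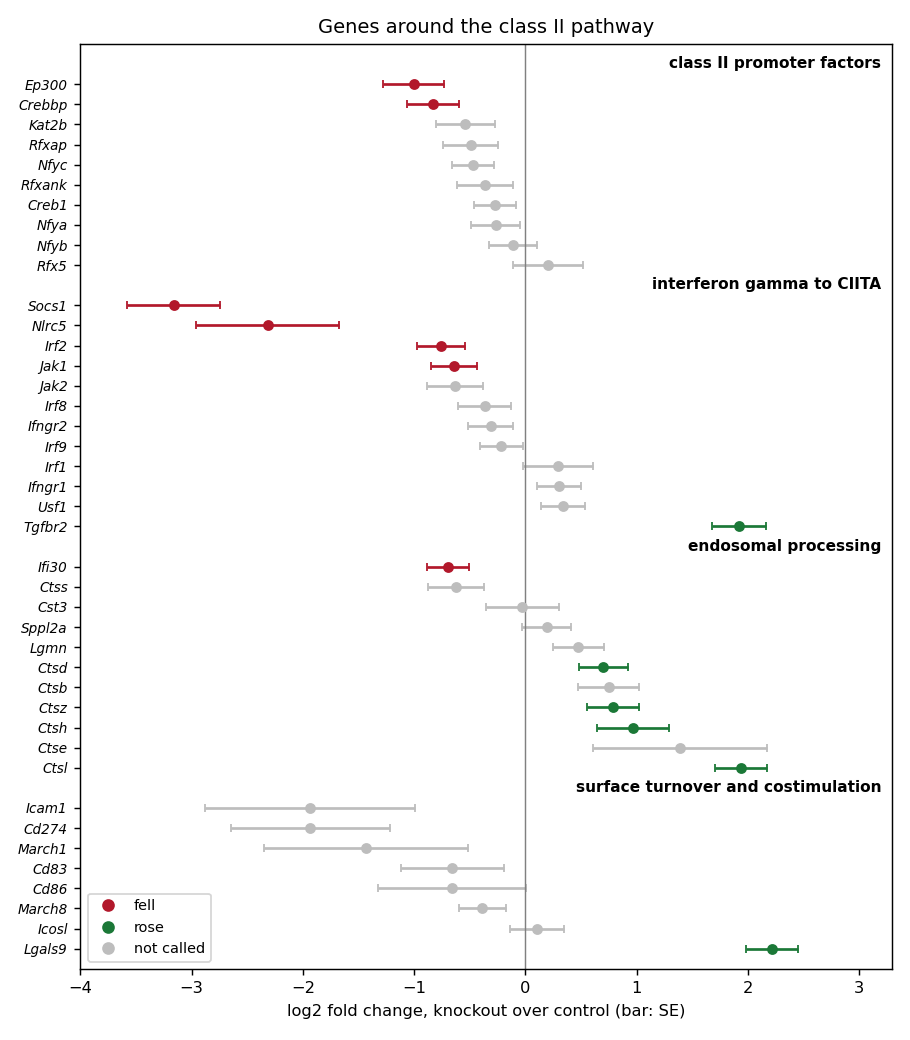
Log2 fold change, knockout over control, of tested genes in 4 lists around the class II genes (bar: SE, colour: call at an adjusted p under 0.05). Promoter factors lie between -1.0 and 0.21, while Socs1 at -3.16 and Nlrc5 at -2.32 are the lowest of the interferon list.

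The genes whose profile over the 6 libraries was most like that of the class II genes, by Pearson correlation with the mean of their standardised log2 CPM, were Asb7 and Itgax (both 0.99), Bfsp1, Slc19a2, Irgm1, Syk, Fam126a and Pdxk (0.98 to 0.99). Irgm1, an interferon-inducible GTPase, stood at 5.28, 2.49 and 2.13 CPM in knockouts 423, 476 and 477, against 9.44, 16.6 and 10.7 CPM in controls 482, 483 and 486. On deviations from the genotype means the closest were Ptp4a3, March7, Slc19a2, Psip1, Tacc1, Tcf4, Itgax and Cd79a (0.97 to 1.00). Cd79a, the B cell receptor component, had 3.29, 0.366 and 0 CPM in knockouts 423, 476 and 477, against 0.422, 11.6 and 0.840 CPM in controls 482, 483 and 486. With 6 libraries many genes reach such values, and these are a description.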

How the data were processed

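The authors deposited a table of whole-number counts per Ensembl gene, not normalized, and a table of variance-stabilised values on a log2 scale, used here for 1 alternative. The submitters' processing notes name STAR 2.7.9a, featureCounts (Subread 1.6.2), fastp 0.21.0, bcl2fastq, FastQC 0.11.7, DESeq2 1.23.10 and build mm10. How reads were assigned (annotation, strand, filters) is not given in the sources used here. Symbols matched 55104 of 55450 identifiers. Exon lengths and positions are those of GENCODE M21 (mm10).

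Groups came from the sample titles. Counts were fitted in R 4.3.3 with edgeR 4.0.16 after filterByExpr (15028 genes) and TMM scaling, with the robust quasi-likelihood test of knockout against control and Benjamini-Hochberg adjustment at 0.05. An SE is the log2 fold change over the square root of F. CPM and RPKM are TMM-scaled, and correlations used log2 CPM with a prior count of 2. The fitting was tested on simulated counts.

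The members and lists were chosen with earlier results of these data known. Named are the 8 genes, up to 6 called genes of each list, uncalled ones whose role is needed to read a list, and the 8 closest profiles by each measure (mean of at least 2 CPM). Other genes given by their level were picked for their role after values were seen. One targeted gene and some genes of the lists are not reported by name here, though list counts include them. Floors cover counting error only. Alternatives were scaling by size factors, upper quartile or total counts, no filter or a filter at 1 CPM, DESeq2 1.42.0, limma-voom and limma-trend (limma 3.58.1), the 20 most abundant genes left out, each library's spline trend with exon length and GC content removed, and each library left out.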

Additional observations from a re-analysis of the deposited data

How the results depend on the processing

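Across 10 alternatives that kept all 6 libraries, 7 class II genes fell in 8, 8 in the fit without a filter and 5 once trends with length and GC content were taken out. Of all genes, 12.8% fell without a filter, 13.5% with the trends taken out and 16.8% to 30.3% in the other 8. Without the filter H2-DMb2 passed at -1.87 (SE 0.51, against 1.37 in the main fit). The SEs of the other members also shrank there, to 0.31 from 1.15 for Cd74 and to 0.31 from 0.98 for H2-Ab1. The reason was not tested, so little weight falls on the H2-DMb2 call. In the trend-corrected fit Cd74 (-4.37, adjusted p = 0.055) and H2-Aa (-3.84, adjusted p = 0.065) did not pass. Under these alternatives the ranges of log2 fold changes were -5.09 to -4.58 for H2-Ab1, -4.06 to -3.34 for H2-DMa, -5.57 to -4.18 for H2-DMb1 and -4.12 to -2.72 for Ciita, all past the threshold, and the cause of the shifts was not tested. With 1 library left out the count that fell ran from 3 to 7, and the log2 fold changes from -5.97 to -3.70 for H2-Ab1, -5.19 to -2.45 for H2-Aa, -4.55 to -2.53 for H2-Eb1, -5.88 to -3.05 for Cd74, -4.15 to -2.92 for H2-DMa, -5.55 to -3.98 for H2-DMb1, -4.74 to -2.60 for Ciita and -5.08 to 0.24 for H2-DMb2. H2-DMb2 changed sign without control 483 (0.24, adjusted p = 0.90), which holds most of its control counts (168, against 18 and 32 in the others). Such fits hold 1 genotype to 2 libraries, and 11% to 19.5% of all genes fell in them. At 0 to 45 counts in knockouts, depth limits what can be said of H2-DMb2, at 2 to 20 of Ciita and at 7 to 21 of H2-DMb1. No paired analysis was possible because the genotypes share no animal number.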
